A study of Mus musculus with 6 samples.

Results

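The genes described here are 10 cyclins and proliferation genes: the D-type cyclins Ccnd1, Ccnd2 and Ccnd3, the E-type cyclins Ccne1 and Ccne2, the later cyclins Ccna2 and Ccnb1, the inhibitor gene Cdkn1b, and the dividing-cell markers Mki67 and Top2a. They were taken by gene name from a table of 55385 genes. All 10 are listed, and 4 of them (Ccnd1, Ccnd3, Ccne1 and Cdkn1b) are among the 11677 genes with a mean of at least 0.5 FPKM (fragments per kilobase, scaled to 1e6 fragments of the library), which was the limit for testing. Each of these 4 lay above that limit in every library. The livers came from 6 mice of the C57BL/6 strain, aged 6 weeks, with 2 per group. Optn-/- mice (replicates 4 and 5) and wild-type mice (replicates 1 and 4) received 500 mg/kg acetaminophen, and wild-type controls (replicates 3 and 6) received 200 µL PBS into the abdominal cavity. All livers were taken 6 h later. Optn encodes optineurin, an autophagy receptor for damaged mitochondria, and the study asked how its loss bears on acetaminophen injury. No Optn-/- mice without acetaminophen were analysed here, so a difference between the genotypes cannot be divided into one present before the drug and one arising with it.

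Acetaminophen in excess is converted in hepatocytes to a reactive product that depletes glutathione and kills cells around the central vein, and the surviving cells later divide to replace them. Adult hepatocytes are mostly out of the cell cycle. D-type cyclins with CDK4 or CDK6 carry a cell out of quiescence by phosphorylating the retinoblastoma protein, cyclin E with CDK2 starts DNA replication, cyclin A serves replication and the approach to mitosis, and cyclin B with CDK1 drives mitosis. The protein p27, from Cdkn1b, holds CDK2 complexes back. Ki-67, from Mki67, coats mitotic chromosomes, and topoisomerase II alpha, from Top2a, untangles replicated DNA.

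Promoters of genes used late in the cell cycle often hold CCAAT boxes and a CHR element (TTTGAA), through which the DREAM complex keeps them silent in resting cells. RefSeq promoter windows on GRCm38.p6 were at hand for 6 of the 10 genes, and 4 are shown because they belong to both dividing-cell markers, to the mitotic cyclin and to the E-type cyclin whose level changed. Each is given 5′ to 3′ upstream of the start, and capitals mark CCAAT or its reverse complement ATTGG, and TTTGAA or its reverse complement TTCAAA. The coordinates are chr7:135716380-135716629 for Mki67, chr11:99024190-99024439 for Top2a, chr13:100786571-100786736 for Ccnb1 and chr7:38107535-38107740 for Ccne1, all on the minus strand. The Ccnb1 and Ccne1 stretches stop where the annotated gene begins.
Mki67: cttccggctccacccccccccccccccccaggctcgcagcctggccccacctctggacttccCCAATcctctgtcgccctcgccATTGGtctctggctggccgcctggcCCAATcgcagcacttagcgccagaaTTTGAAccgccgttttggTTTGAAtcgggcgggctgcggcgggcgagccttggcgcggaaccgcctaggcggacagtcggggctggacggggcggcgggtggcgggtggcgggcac
Top2a: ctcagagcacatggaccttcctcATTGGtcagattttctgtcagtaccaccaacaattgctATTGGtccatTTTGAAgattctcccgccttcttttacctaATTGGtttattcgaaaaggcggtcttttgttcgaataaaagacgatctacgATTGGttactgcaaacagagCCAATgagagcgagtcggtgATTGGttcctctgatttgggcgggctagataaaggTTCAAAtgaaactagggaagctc
Ccnb1: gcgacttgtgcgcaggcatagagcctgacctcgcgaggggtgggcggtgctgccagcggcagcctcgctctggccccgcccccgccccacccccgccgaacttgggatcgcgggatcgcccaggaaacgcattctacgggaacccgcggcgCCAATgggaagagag
Ccne1: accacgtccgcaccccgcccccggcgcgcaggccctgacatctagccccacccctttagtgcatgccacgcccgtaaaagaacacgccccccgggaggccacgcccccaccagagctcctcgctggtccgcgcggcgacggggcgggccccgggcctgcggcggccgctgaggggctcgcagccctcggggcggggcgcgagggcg
In the 250 bases before the RefSeq start, searched on both strands, Mki67 held 3 CCAAT and 2 TTTGAA matches and Top2a held 6 CCAAT and 2 TTTGAA matches. Ccnb1 held 2 CCAAT matches, 1 of them in the stretch shown, and no TTTGAA. Ccne1 held neither, and Cdkn1b held 2 CCAAT matches. The variant TTTAAA, which reads the same on both strands, was found 1 time each in Ccnb1, Ccne1 and Cdkn1b, and the E2F-type sequence TTTNNCGC in none of the 6 genes. Such matches are common: CCAAT was in 33.85% of 32851 windows of this length, TTTGAA in 15.99%, TTTAAA in 12.08% and TTTNNCGC in 4.28%. These are letter matches and not measured binding sites.

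Facts of the libraries that touch the results are as follows. Total counts ran from 59.1 to 77.3 M (1e6 counts). Optn had 0.316 and 0.457 FPKM in Optn-/- livers after acetaminophen, 9.17 and 9.19 FPKM in wild-type livers after acetaminophen and 20.95 and 18.73 FPKM in controls, so no library went against its genotype label. All 10 hepatocyte markers were present in every library. Control replicate 3 and both wild-type acetaminophen libraries held traces of skeletal muscle RNA (58.5 to 89.9 counts per 1e6 counts, CPM, over 12 markers, against 0.580 to 1.01 CPM elsewhere). Control replicate 6 and both Optn-/- libraries held intestinal RNA (42.8 to 71.1 CPM over 12 markers, against 2.20 to 10.1 CPM elsewhere). This division into library sets is shared by the genotype comparison, and a fit with the set as a term rests on the controls alone. That fit in effect sets treated wild type against control replicate 3 and Optn-/- livers against control replicate 6. Its folds against control thus nearly repeat those with the other control left out, and it is not a separate check. Wild-type acetaminophen replicate 4 also held neuron transcripts, with 151.1 CPM over 10 markers against 7.56 to 16.0 CPM in the other libraries. Counts from 1 to 16 lay on multiples of 4 in 48.1% of cases, where an even spread gives 25%. The cause is not given in the sources used here and was not tested, and the error of low counts may be larger than their size shows.

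The first comparison is acetaminophen against PBS in wild-type liver. Ccnd1, the main D-type cyclin of hepatocytes entering the cycle, fell (log2 fold change -1.05 ± 0.23, SE), and Ccne1 rose (1.40 ± 0.25). The transcript of the inhibitor p27 did not pass the test. Of the 4 tested genes, 1 rose, where 8.36% of all tested genes rose, and 1 fell, where 5.92% of all tested genes fell (edgeR quasi-likelihood test, Benjamini-Hochberg adjusted p under 0.05 over 11677 genes). Over all tested genes this was 976 rises and 691 falls, but scaling by total counts instead of trimmed means gave 721 and 1470 and moved the median log2 fold change of all genes to -0.19.

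Ccnd1 (ENSMUSG00000070348, chromosome 7, 144929931 to 144939925, minus strand, GRCm38) had 2.69 and 1.78 FPKM in Optn-/- livers after acetaminophen, 3.27 and 3.92 FPKM in wild-type livers after acetaminophen and 8.12 and 9.04 FPKM in controls. The 3 groups did not overlap, with controls highest and Optn-/- livers lowest. The share of all genes whose groups do not overlap is not given here. For this gene and those below, lack of overlap therefore only describes the values. Both treated groups lay below control: the adjusted p was 0.0368 in wild type and 0.0072 in Optn-/- livers (log2 fold change -1.75 ± 0.24, edgeR). The wild-type call was lost, with the direction kept, when any one of the 4 libraries compared was left out (adjusted p 0.0913 to 0.144) and with library set as a term (0.123, edgeR). The 818 bases that Ccnd1 shares with LTO1, on the opposite strand, cannot be assigned without knowing whether strand was used in counting. LTO1 had far fewer counts, 290 and 165 in Optn-/- livers, 201 and 302 in wild-type acetaminophen livers and 455 and 434 in controls, against 569 to 3528 for Ccnd1 over all libraries.

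Ccnd3, the D-type cyclin most used by blood and immune cells, had 3.02 and 0.902 FPKM in Optn-/- livers, 2.63 and 2.70 FPKM in wild-type acetaminophen livers and 3.80 and 1.03 FPKM in controls. Optn-/- replicate 5 and control replicate 6 were low and the other 4 libraries high, so this gene divided within groups and not between them. Its log2 fold change in wild type was 0.35 ± 0.74 (edgeR adjusted p = 0.788) and its sign turned without control replicate 6 (-0.34). Ccnd3 shares 359 bases with Bysl on the opposite strand, which had 1032 to 1712 counts against 541 to 2231 for Ccnd3. Ccnd2, the remaining D-type cyclin, was below the limit for testing, with 0.390 and 0.522 FPKM in Optn-/- livers, 0.237 and 0.250 FPKM in wild-type acetaminophen livers and 0.370 and 0.471 FPKM in controls. The wild-type acetaminophen livers were the lowest pair and did not overlap either other group. In a fit of all 27227 genes with a count, used for the 6 genes under the limit, its log2 fold change was -0.62 ± 0.33 in treated wild type (edgeR adjusted p = 0.346).

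Because levels in FPKM are per length, the 3 D-type cyclins can be set against each other. Their sum was 6.10 and 3.20 FPKM in Optn-/- livers, 6.14 and 6.87 FPKM in wild-type acetaminophen livers and 12.3 and 10.5 FPKM in controls. Ccnd1 made up 44.1% and 55.5% of that sum in Optn-/- livers, 53.3% and 57.1% in wild-type acetaminophen livers and 66.1% and 85.8% in controls. The treated livers thus had less D-type cyclin transcript and a smaller Ccnd1 share, with no overlap with control in either measure. The share also follows Ccnd3, which was at its lowest in Optn-/- replicate 5 and control replicate 6.

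**Figure D1:**
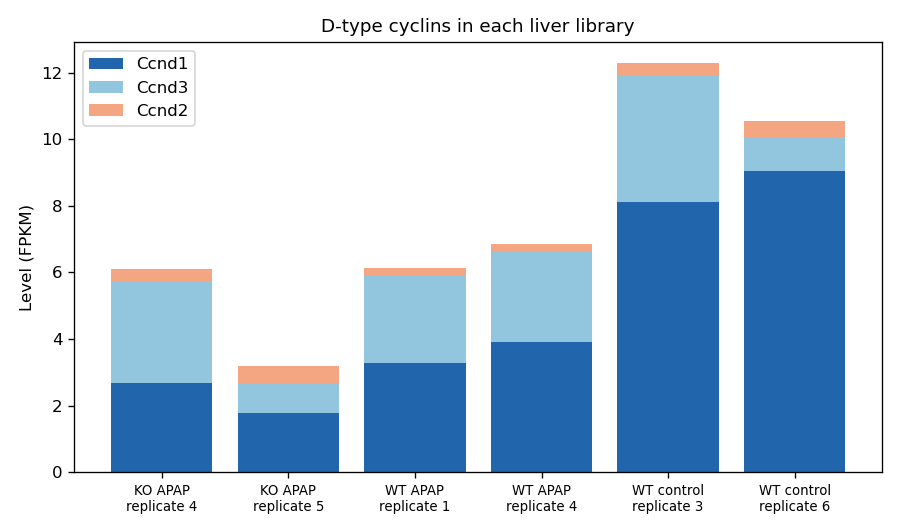
Stacked levels in FPKM of Ccnd1, Ccnd3 and Ccnd2 in each of the 6 livers (KO, Optn-/-; APAP, acetaminophen). The summed height is 3.20 to 6.87 FPKM in the 4 treated livers and 10.5 to 12.3 FPKM in the controls, and the Ccnd1 block accounts for most of the difference.

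Ccne1 (ENSMUSG00000002068, chromosome 7, 38097984 to 38107534, minus strand) moved the other way. It had 2.15 and 1.87 FPKM in Optn-/- livers, 3.18 and 2.35 FPKM in wild-type acetaminophen livers and 1.18 and 1.25 FPKM in controls. All treated livers exceeded both controls, and the rise in wild type had an edgeR adjusted p of 0.0216. The call was lost when control replicate 3, control replicate 6 or wild-type acetaminophen replicate 1 was left out (0.0999, 0.0887 and 0.0771) and with library set as a term (0.0870, edgeR). In Optn-/- livers against control the log2 fold change was 0.91 ± 0.25 and just missed the threshold (edgeR adjusted p = 0.0536), while DESeq2 (0.00914) and edgeR without replicate 4 of the wild-type acetaminophen group (0.0443) put it past.

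Ccne2, the second E-type cyclin, had 0.443 and 0.382 FPKM in Optn-/- livers, 0.152 and 0.390 FPKM in wild-type acetaminophen livers and 0.251 and 0.172 FPKM in controls. The 2 wild-type acetaminophen livers lay on either side of the control range, and the sign of the wild-type change depended on replicate 4 (0.46 ± 0.63 with it, -0.26 without). Optn-/- livers were above both controls (1.05 ± 0.63, edgeR adjusted p = 0.424, no filter). Ccne2 shares 5622 bases of its span with Ints8 on the opposite strand, which had far more counts, 407 to 889 against 39 to 131. The part of Ints8 in the Ccne2 counts was not tested.

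Among the cyclins of later phases, Ccna2 had 0.139 and 0.190 FPKM in Optn-/- livers, 0.196 and 0.322 FPKM in wild-type acetaminophen livers and 0.288 and 0.283 FPKM in controls. Its wild-type log2 fold change was 0.02 ± 0.59, and its Optn-/- change against control -0.66 ± 0.59, neither past the threshold (edgeR adjusted p = 1 and 0.630, no filter). Part of Ccna2 overlaps Exosc9 (863 bases, opposite strand), which had far more counts, 489 to 641 against 48 to 103 for Ccna2. The shared bases cannot be assigned without knowing the use of strand. The part of Exosc9 in the Ccna2 counts was not tested.

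Ccnb1 was at the edge of detection, with 22 and 8 counts in Optn-/- livers, 26 and 101 counts in wild-type acetaminophen livers and 0 counts in both controls. Taking 3 steps of 4, or 12 counts per library, as what a count of 0 allows, the mean of the wild-type acetaminophen livers was at least 5.03-fold higher than control, a bound that came to 2.18-fold without replicate 4 and 7.87-fold without replicate 1. The Optn-/- mean, 0.206 CPM, lay so near that floor (0.181 CPM) that no fold is given. With no filter Ccnb1 passed the test in both comparisons against control (edgeR adjusted p = 0.0153 in wild type and 0.0356 in Optn-/- livers). Both calls were lost without either control (0.106 and 0.102 in wild type, 0.168 and 0.160 in Optn-/- livers). Without wild-type acetaminophen replicate 4, the library with neuron transcripts and 101 of the counts, the adjusted p was 0.0692 in wild type and 0.0620 in Optn-/- livers, so both calls were lost there too. Leaving out either Optn-/- library also ended both calls (edgeR adjusted p 0.0620 to 0.167), as did library set as a term (0.111 in wild type and 0.181 in Optn-/- livers), and limma made neither. The filterByExpr filter ended the Optn-/- call alone (edgeR adjusted p = 0.0559). Both calls were made without wild-type acetaminophen replicate 1 (0.0246 in wild type and 0.0443 in Optn-/- livers, edgeR) and by DESeq2. Counts of Ccnb1 are also uncertain because 5 near copies exist, the closest being the pseudogene Ccnb1-ps (99.2% identity over 1287 bases), which had 4 and 0 counts in Optn-/- livers, 2 and 13 in wild-type acetaminophen livers and 2 and 8 in controls. The next by count was Gm4870 (94.4% identity), with 12 and 8 counts in Optn-/- livers, 8 and 14 in wild-type acetaminophen livers and 0 in both controls.

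The dividing-cell marker Mki67 had 0.274 and 0.252 FPKM in Optn-/- livers, 0.248 and 0.161 FPKM in wild-type acetaminophen livers and 0.0289 and 0.0977 FPKM in controls. In counts this was 232 and 173 in Optn-/- livers, 179 and 126 in wild-type acetaminophen livers and 19 and 82 in controls. All 4 treated livers were above both controls, and the 2 controls differed from each other more, relative to their level, than any 2 treated livers. The log2 fold change was 1.86 ± 0.60 in wild type and 2.18 ± 0.61 in Optn-/- livers against control, with adjusted p of 0.104 and 0.0544 by edgeR with no filter, and 0.0328 and 0.00755 by DESeq2. Both folds hung on the controls: they were 1.26 in wild type and 1.57 in Optn-/- livers without control replicate 3, and 2.95 in wild type and 3.27 in Optn-/- livers without control replicate 6. Neither comparison passed without control replicate 3 (edgeR adjusted p = 0.401 in wild type and 0.270 in Optn-/- livers), with library set as a term (0.0793 and 0.298) or by limma (0.227 and 0.103). An edgeR fit of all genes with counts divided by 4, in view of the count steps, gave 0.00608 in wild type and 0.000871 in Optn-/- livers. That fit drew the spread of every gene fully to the common trend and made far more calls, 1279 of 25709 genes between the genotypes against 37 of 27227 with undivided counts.

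Top2a had 0.0538 and 0.113 FPKM in Optn-/- livers, 0.118 and 0.152 FPKM in wild-type acetaminophen livers and 0.0666 and 0.0936 FPKM in controls. The Optn-/- values spanned the control range. Its log2 fold change was 0.91 ± 0.64 in wild type and 0.17 ± 0.63 in Optn-/- livers against control (edgeR adjusted p = 0.515 and 0.987, no filter). Of these 2 markers, whose promoters share the CCAAT and TTTGAA letters shown above, Mki67 was above both controls in both Optn-/- livers and Top2a in 1. The difference between the markers was not tested.

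Among the 6 genes under the limit, 1 (Ccnb1) rose in wild type with no filter, where 4.33% of all genes rose and 2.88% fell. In Optn-/- livers against control, Ccnb1 was again the only one of these 6 called, where 5.55% rose and 3.55% fell. The levels were so low that a share of dividing cells cannot be read from them: in bulk tissue, fewer cells of a kind and less RNA per cell cannot be told apart. Markers of some cell types that enter or lie in the injured liver moved with treatment as well, and those of others did not. Neutrophil markers summed to 152 and 194 CPM in Optn-/- livers, 147 and 70.7 CPM in wild-type acetaminophen livers and 2.64 and 6.63 CPM in controls, with all 10 above 0 in the treated livers and 4 and 2 of 10 at 0 in the controls. Erythroid markers summed to 8460 and 8927 CPM in Optn-/- livers, 9384 and 3962 CPM in wild-type acetaminophen livers and 700.1 and 1110 CPM in controls. Stellate and cholangiocyte sums were above both controls in every treated liver. Macrophage and monocyte markers summed to 286.8 and 213.4 CPM in Optn-/- livers and 170.9 and 147.3 CPM in wild-type acetaminophen livers. Controls had 77.8 and 211.9 CPM. Endothelium markers summed to 154.4 and 140.3 CPM, 109.2 and 104.4 CPM and 83.1 and 140.6 CPM in the same order. Both of these sums lay within the control range in treated wild type. T, B and NK cell markers lay between 4.28 and 9.07 CPM in all livers, and intestinal crypt markers between 6.34 and 13.9 CPM, highest in the controls. Of the crypt markers, Olfm4 and Ascl2 were at most 0.432 and 0.0704 CPM, so that sum came mostly from Lgr5, Smoc2 and Axin2. Control replicate 3 had 12.1 CPM of it with 2.20 CPM of intestine markers, so it cannot be read as a level of crypt cells. The part of any of these cell types in the Mki67, Ccnb1 and Ccnd3 values was not tested.

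**Figure D2:**
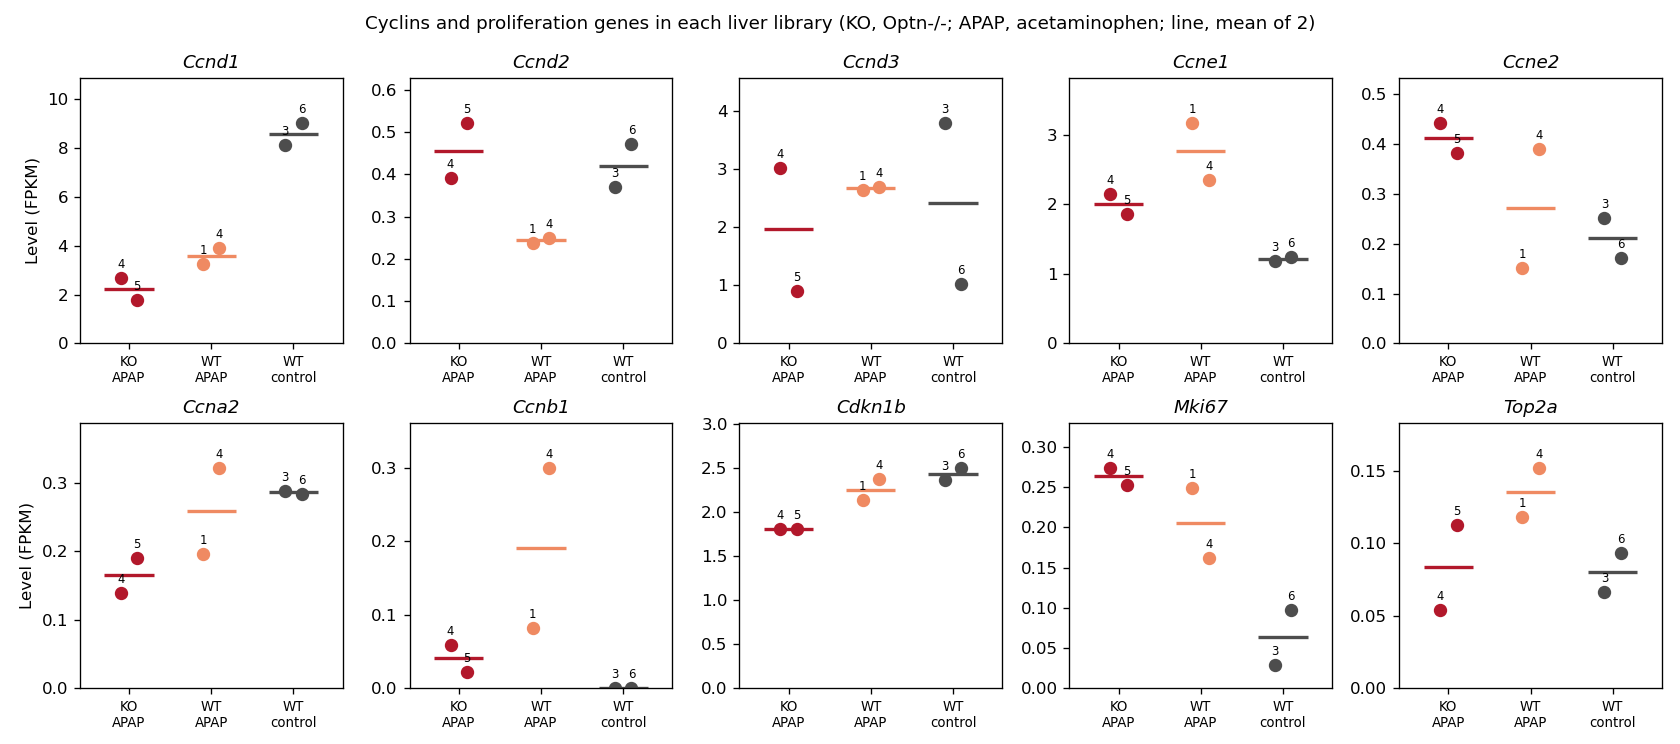
Level in FPKM of each of the 10 genes by liver (points, numbered by replicate) with the mean of 2 as a line, for Optn-/- acetaminophen (KO APAP), wild-type acetaminophen (WT APAP) and wild-type control. Each panel has its own axis from 0; Ccnd1 is highest in controls, Ccne1 and Mki67 are lowest there, and Ccnd3 divides within groups.

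Cdkn1b (ENSMUSG00000003031, chromosome 6, 134920401 to 134925513, plus strand) had the narrowest range of the 10 genes relative to its level. It had 1.81 and 1.81 FPKM in Optn-/- livers, 2.13 and 2.38 FPKM in wild-type acetaminophen livers and 2.37 and 2.51 FPKM in controls. The wild-type groups overlapped, and the Optn-/- pair was below all other livers. In wild type the log2 fold change was 0.10 ± 0.15 (edgeR adjusted p = 0.716), and -0.12 under total-count scaling, so its sign hangs on the scaling. Against control the Optn-/- livers differed by -0.25 ± 0.15 (edgeR adjusted p = 0.304).

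The second comparison sets Optn-/- against wild-type livers, both after acetaminophen, and asks whether loss of optineurin alters these genes in the injured liver. It shares the treated wild-type livers with the first. None of the 4 tested genes passed, where 0.103% of all tested genes did (12 of 11677). An unadjusted edgeR p under 0.05 was found for 1 of the 4, where 1024 of the 11677 had one. DESeq2 and limma (pseudocount 0.5) also called 0 of the 4. They had 2 and 1 at an unadjusted p under 0.05, where 1301 and 1029 of the 11677 had one. Ccnd1 differed by -0.71 ± 0.23 on the log2 scale, being lower in the Optn-/- livers (SE, adjusted p = 0.509 and unadjusted p = 0.0232, edgeR), and both Optn-/- values were below both wild-type values. The fit of all genes with counts divided by 4, which called 1279 genes here, put Ccnd1 past the threshold (edgeR adjusted p = 0.0267), and the same counts with the limit for testing did not (0.494). Ccne1 differed by -0.49 ± 0.25 and Cdkn1b by -0.34 ± 0.15, also without overlap of the groups, and Ccnd3 by -0.46 ± 0.74 with the Optn-/- values on both sides of the wild type (edgeR adjusted p = 0.639 for Ccne1, 0.608 for Cdkn1b and 0.895 for Ccnd3). With 2 livers a group a lack of overlap carries little weight. Its share over all genes is not given here, so no genotype effect is read from it. Of the 6 genes under the limit none passed with no filter, where 0.136% of all genes did. The largest of their differences relative to its error was that of Ccnd2, 0.87 ± 0.33 higher in Optn-/- livers (edgeR adjusted p = 0.523, unadjusted 0.0246). With 2 livers a group these data do not show that the genotypes are alike.

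The third comparison, treated Optn-/- against wild-type control, shares its controls with the first and differs in both genotype and treatment. Of the 4 tested genes none rose, where 12.2% of all tested genes rose, and 1, Ccnd1, fell, where 8.05% fell (1426 and 940 genes, or 1134 and 1756 under total-count scaling, edgeR). The Ccnd1 fall was called under all 17 alternatives run, with an adjusted p of at most 0.0337. Set side by side, the log2 fold change against control was -1.75 in Optn-/- and -1.05 in wild-type livers for Ccnd1, and 0.91 in Optn-/- and 1.40 in wild-type livers for Ccne1.

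**Figure D3:**
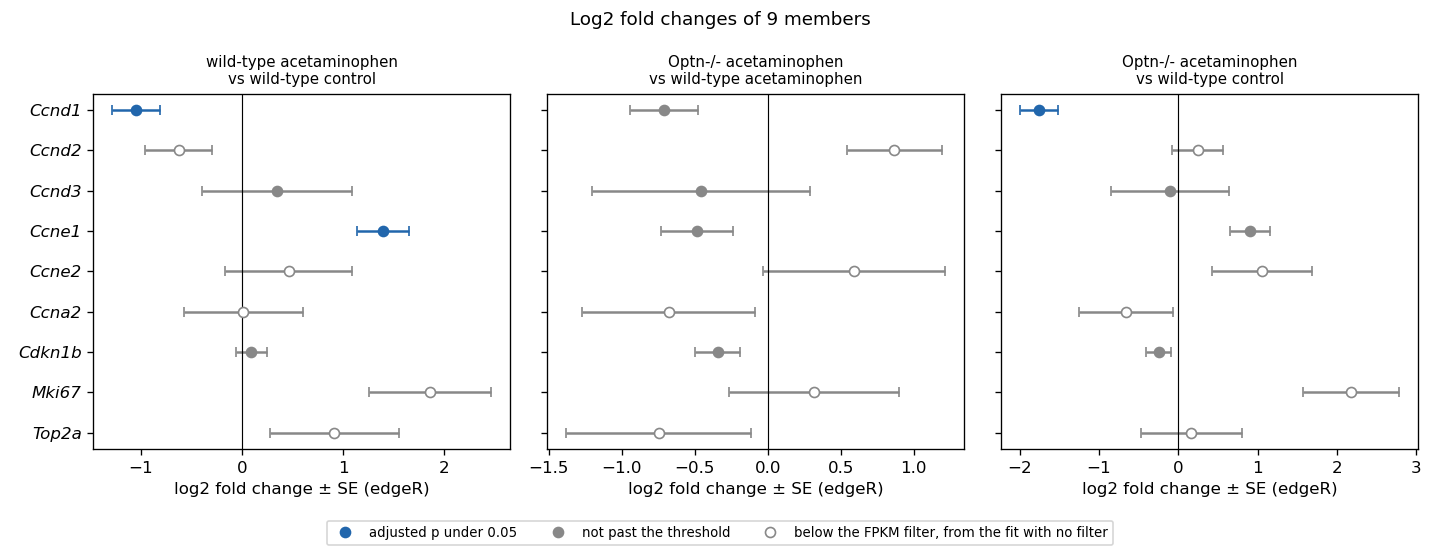
Log2 fold changes with SE from edgeR for 9 of the 10 genes in the 3 comparisons; Ccnb1 is left out because both controls had a count of 0. Filled blue points passed the adjusted p of 0.05, grey ones did not, and open points are genes below 0.5 FPKM from the fit with no filter. Ccnd1 passed on the left of 0 and Ccne1 on the right in wild type, no gene passed between genotypes, and Ccnd1 alone passed in the panel of Optn-/- against control.

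The other genes of the cycle machinery were taken from 8 lists. Among 21 further cyclins and CDKs, 18 were tested. In treated wild type 4 rose and 1 fell, where 8.36% of all tested genes rose and 5.92% fell. Their median log2 fold change was 0.18 beside 0.03 for all tested genes. Cyclin L1 (Ccnl1), a partner of splicing kinases, had 8.25 and 13.0 FPKM in Optn-/- livers, 7.17 and 7.04 FPKM in wild-type acetaminophen livers and 2.00 and 1.85 FPKM in controls (2.09 ± 0.22 in wild type, edgeR adjusted p = 0.00564). Ccng2, which codes for a cyclin linked to arrest, also rose (1.37 ± 0.20), as did the transcription-elongation genes Ccnk (0.73 ± 0.13) and Cdk9 (0.73 ± 0.14). Ccnf, whose product is a substrate receptor of a ubiquitin ligase and not a CDK partner, fell (-1.45 ± 0.18), to 0.932 and 0.908 FPKM in Optn-/- livers and 0.665 and 0.798 FPKM in wild-type acetaminophen livers, against 2.46 and 2.17 FPKM in controls. The 5 called genes thus include regulators of transcription and splicing as well as of the cycle. Ccnl2, a relative of Ccnl1, had 13.4 and 14.2 FPKM in Optn-/- livers, 10.7 and 9.37 FPKM in wild-type acetaminophen livers and 11.3 and 11.8 FPKM in controls, and passed in no comparison. Under total-count scaling the wild-type count was 2 rises and 1 fall.

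Of 7 other CDK inhibitor genes, 3 were tested and 1 rose in treated wild type, where 8.36% of all tested genes rose. Cdkn1a, which encodes p21 and is a classic target of p53, had 36.4 and 41.4 FPKM in Optn-/- livers, 43.4 and 29.6 FPKM in wild-type acetaminophen livers and 0.203 and 0.728 FPKM in controls. The treated livers were all above the controls by a wide margin (6.48 ± 0.63 on the log2 scale in wild type, edgeR adjusted p = 0.00433), and by 6.54 ± 0.63 in Optn-/- livers. Set beside Cdkn1b, p21 transcript was well below p27 transcript in controls and well above it in treated livers, both per length. The INK4 genes Cdkn2c and Cdkn2d, inhibitors of CDK4 and CDK6, did not pass (-0.12 ± 0.34 and 0.74 ± 0.37). Cdkn1c, Cdkn2a, Cdkn2b and Cdkn3 were under the limit, with at most 89, 4, 59 and 26 counts in any library.

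Of 15 antiproliferative and checkpoint genes 9 were tested, 5 rose, where 8.36% of all tested genes rose, and none fell, with a median log2 fold change of 2.41 in treated wild type beside 0.03 for all tested genes. Btg2, a brake on cell division, had 174.4 and 205.6 FPKM in Optn-/- livers, 169.9 and 120.5 FPKM in wild-type acetaminophen livers and 2.54 and 3.86 FPKM in controls (5.72 ± 0.32, edgeR adjusted p = 0.00144). Gadd45a, a stress gene that slows entry to mitosis, had 54.1 and 42.9 FPKM in Optn-/- livers, 48.0 and 26.6 FPKM in wild-type acetaminophen livers and 1.21 and 1.15 FPKM in controls (5.17 ± 0.37). Gadd45b (4.14 ± 0.57), Btg1 (2.41 ± 0.18) and Btg3 (2.04 ± 0.32) rose too. The 4 others did not pass, among them Wee1, for the kinase that restrains CDK1 (-0.34 ± 0.24). The same count, 5 rises and 0 falls, was found without wild-type acetaminophen replicate 4, with library set as a term and under total-count scaling.

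Of 19 genes of the RB, E2F and DREAM group 12 were tested and none passed in wild type. Of the 12, 3 had an unadjusted edgeR p under 0.05, where 3767 of all 11677 tested genes had one. The 3 in this list were Tfdp1, the partner of E2F factors (-0.85 ± 0.22), the repressor gene E2f6 (-0.90 ± 0.24) and the pocket protein gene Rbl2 (-0.63 ± 0.19), with edgeR adjusted p of 0.0575, 0.0617 and 0.0839. DESeq2, limma (pseudocount 0.5) and total-count scaling each called 3 falls in this list. Over all 11677 genes they called 1419, 1496 and 1470 falls. In Optn-/- livers against control edgeR called Rbl2 (-0.91 ± 0.20, adjusted p = 0.0262), where 8.05% of all tested genes fell. E2f5 and Lin54 had the smallest p between genotypes, with differences of 0.41 ± 0.21 and 0.60 ± 0.24 in Optn-/- livers that did not pass.

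Of 29 DNA replication genes 20 were tested. In treated wild type none rose and 3 fell, where 8.36% of all tested genes rose and 5.92% fell. The median log2 fold change was 0.05 (DESeq2 called 1 rise and 3 falls). Mcm10, an initiation factor of DNA replication, had 1.45 and 1.02 FPKM in Optn-/- livers, 1.27 and 1.52 FPKM in wild-type acetaminophen livers and 9.28 and 6.81 FPKM in controls (-2.32 ± 0.26, edgeR adjusted p = 0.00614). Gmnn, for the licensing inhibitor geminin, fell by 1.64 ± 0.35 on the log2 scale, and Tk1, for thymidine kinase, by 1.06 ± 0.16. The count was 2 without wild-type acetaminophen replicate 4 and 1 with library set as a term. In Optn-/- livers against control the falls numbered 4, with Gins1, a subunit of the replicative helicase, added (-1.24 ± 0.31). The licensing factor Cdt1 had 1.10 and 1.47 FPKM in Optn-/- livers, 0.301 and 0.631 FPKM in wild-type acetaminophen livers and 0.538 and 0.769 FPKM in controls, and its genotype difference of 1.44 ± 0.44 did not pass (edgeR adjusted p = 0.509). Summed over all 29 genes, the level was 34.7 and 39.8 FPKM in Optn-/- livers, 40.0 and 41.1 FPKM in wild-type acetaminophen livers and 56.1 and 49.5 FPKM in controls, so the treated livers lay below both controls. In wild type the 3 called genes carried this gap: without them the other 26 genes summed to 30.3 and 35.2 FPKM in Optn-/- livers, 35.9 and 36.1 FPKM in wild-type acetaminophen livers and 36.5 and 34.5 FPKM in controls. In FPKM the treated wild-type livers then lay within the control range, and Optn-/- replicate 4 lay below it. FPKM leaves out the trimmed-mean factors, which were 1.09 and 1.11 in controls and 0.922 to 0.981 in treated livers. A larger factor lowers a scaled level, so these 2 placements hang on the scaling.

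Mitosis genes were scarcely detected. Of 25, 1 was tested, the kinase gene Aurka, which did not pass (0.19 ± 0.35 in wild type). Summed over the list the level was 3.17 and 3.49 FPKM in Optn-/- livers, 3.32 and 6.29 FPKM in wild-type acetaminophen livers and 3.75 and 4.17 FPKM in controls. Wild-type acetaminophen replicate 4, which also had the most Ccnb1, Ccna2 and Top2a and the neuron transcripts, stood alone above the controls. In FPKM the other 3 treated livers lay below them. The trimmed-mean factors, 1.09 and 1.11 in controls and 0.922 to 0.981 in treated livers, are not part of FPKM. The place of these 3 livers therefore hangs on the scaling. The part of the neuron transcripts in this sum was not tested.

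**Figure D4:**
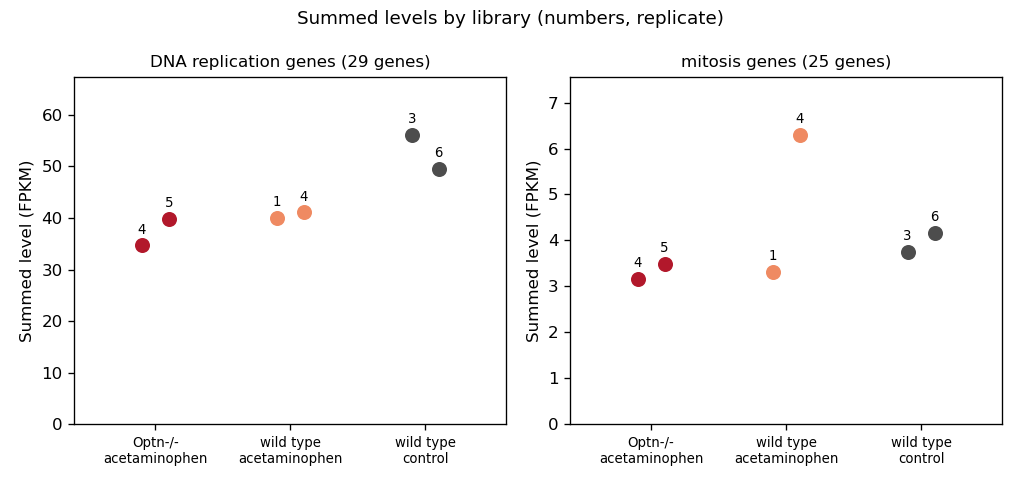
Summed level in FPKM of 29 DNA replication genes (left) and 25 mitosis genes (right) in each liver, numbered by replicate. The replication sum is 34.7 to 41.1 FPKM in treated livers and 49.5 to 56.1 FPKM in controls, a gap that Mcm10, Gmnn and Tk1 carried in wild type; the mitosis sum is 3.17 to 4.17 FPKM in 5 livers and 6.29 FPKM in wild-type acetaminophen replicate 4.

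Of 14 genes for the turnover of cyclins and p27, 13 were tested. In treated wild type 1 rose and 1 fell, where 8.36% of all tested genes rose and 5.92% fell. The deubiquitinase gene Usp2, whose product is known to stabilise cyclin D1, fell to 1.09 and 1.41 FPKM in Optn-/- livers and 1.53 and 2.29 FPKM in wild-type acetaminophen livers, against 9.23 and 11.1 FPKM in controls (-2.20 ± 0.23 in wild type, edgeR adjusted p = 0.00543). Usp2 is also a clock-controlled gene. The ubiquitin ligase scaffold gene Cul1 rose by 0.63 ± 0.14, a call not made under total-count scaling, by limma, with library set as a term or without replicate 4 of the wild-type acetaminophen group. Cks1b, which helps present p27 for destruction, had a log2 fold change of -0.84 ± 0.24 in wild type that did not pass (edgeR adjusted p = 0.0698) and fell in Optn-/- livers against control (-1.19 ± 0.24, adjusted p = 0.0223). Skp2, the receptor that binds p27, was under the limit.

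The Foxo genes encode factors that can raise Cdkn1b and lower D-type cyclin transcription. Foxo3 had 13.3 and 10.1 FPKM in Optn-/- livers, 11.7 and 14.1 FPKM in wild-type acetaminophen livers and 5.64 and 4.92 FPKM in controls, and rose in wild type (1.50 ± 0.19, edgeR adjusted p = 0.00946). Foxo1 also passed (0.66 ± 0.16, edgeR adjusted p = 0.0484), and Foxo4 did not (-0.39 ± 0.14). Thus 2 of 3 rose, where 8.36% of all tested genes rose. Of the 3, 1 rose if replicate 4 of the wild-type acetaminophen group was left out and 1 with library set as a term, and under total-count scaling 1 rose and 1 fell. Between genotypes after acetaminophen none of the 8 lists had a called gene by edgeR, DESeq2 or limma. Unadjusted edgeR p values under 0.05 numbered 2 of 18 among the cyclins and CDKs and 1 of 12 in the RB and E2F list. They numbered 2 of 20 among replication genes, 1 of 13 among turnover genes and 0 in the other 4 lists. Over all tested genes 1024 of 11677 had such a p between genotypes. In Optn-/- livers against control the rises and falls were 4 and 1 among cyclins and CDKs and 1 and 0 among CDK inhibitors. They were 5 and 0 among antiproliferative genes, 0 and 1 in the RB and E2F list and 0 and 4 among replication genes. Mitosis genes had 0 and 0, turnover genes 2 and 2 and Foxo genes 2 and 0. Over all tested genes 12.2% rose and 8.05% fell in that comparison (edgeR).

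**Figure D5:**
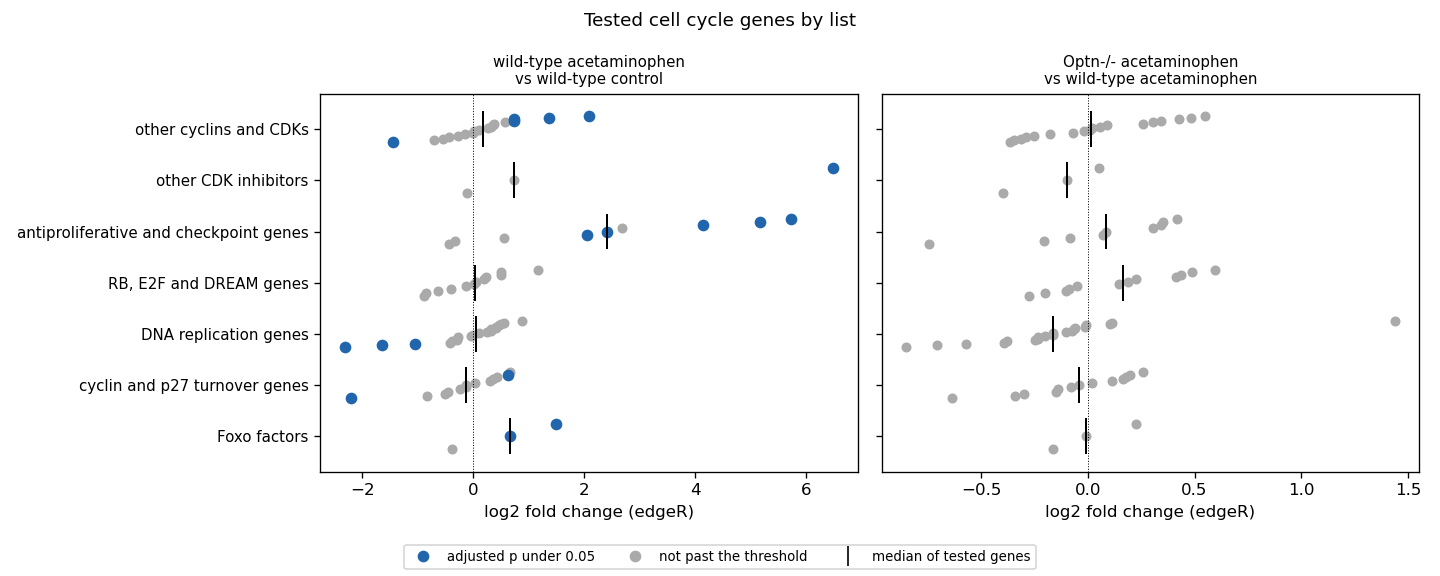
Log2 fold changes from edgeR of the tested genes of 7 lists, 1 point a gene, with the list median as a bar; left, wild-type acetaminophen against control, right, Optn-/- against wild type after acetaminophen. The mitosis list, with 1 tested gene, is not drawn. Antiproliferative genes reach 5.72 and Cdkn1a 6.48 on the left, and no point passed on the right.

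Genes whose levels over the 6 livers were most like those of Ccnd1 were Prss8, Tlr12, Ido2, Ly6g2 and Slc46a3, with root-mean-square differences of 0.118, 0.123, 0.128, 0.145 and 0.150 on the centred log2(FPKM + 0.5) scale. Ido2, an enzyme of tryptophan breakdown, had 6.26 and 4.99 FPKM in Optn-/- livers, 7.44 and 7.51 FPKM in wild-type acetaminophen livers and 17.8 and 18.0 FPKM in controls, the same order of groups as Ccnd1. Ido2 was picked for its likeness to Ccnd1 in these same livers, so that order is not a separate result. Tlr12, ranked nearer, had 0.563 and 0.205 FPKM in Optn-/- livers and 0.496 and 0.685 FPKM in wild-type acetaminophen livers, which overlap. For Mki67 the nearest were Gca, Bzw2, Dmtf1, Epb41l2 and Gm7204 (0.0368 to 0.0593), but Mki67 itself spanned only 0.55 on that scale, so many genes of small range lie close to it.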

How the data were processed

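Poly(A) RNA of 6 livers was sequenced as paired ends, per the labels' protocols, which name an adipose type although the tissue label is liver. Whole-number, unnormalized counts per gene were deposited, as headers and values show, and the deposited FPKM values are listed beside them, with 0.0001 for a count of 0. The sources used here do not give the counter or its use of strand. Per the submitters' processing notes, Bowtie 0.12.2 and build mm8 were used, but coordinates of 9 of the 10 genes equal GENCODE mouse release 21 (GRCm38), so GRCm38 is given.

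Counts were tested with edgeR 4.0.16 in R 4.3.3 (quasi-likelihood, trimmed-mean scaling, 3 group means over 6 libraries, 3 residual degrees of freedom, common biological coefficient of variation 0.277), on genes with a mean of at least 0.5 FPKM, with Benjamini-Hochberg adjustment over all of them. The 6 genes under that limit come from the same fit on all 27227 genes with a count. Alternatives were other scalings and filters, DESeq2 1.42.0, limma 3.58.1 on log2(FPKM + 0.5) or log2(FPKM + 0.1), 2 groups only, library set as a term, each library left out and, chosen after seeing the data, counts divided by 4. Near copies were found with blastn 2.17.0 (at least 150 bases at 90% identity). The fit was also run on simulated counts of the genes above the limit, with a uniform spread smaller than that of the data. That run does not cover the fit used for the 6 genes under the limit. Total counts were 59.1 to 77.3 M (1e6 counts); floors cover counting error only. The 10 genes and the lists were chosen with earlier results of these data known. Named from each list were the 3 smallest p values in wild type and the 2 smallest between genotypes, every CDK inhibitor, and for likeness the 5 nearest genes; Ccnk, Cdk9, Gadd45b and Btg3 were added as the remaining calls of short lists. Labels number the mice without saying how they were raised or grouped, so a p-value here reflects only how these livers differed, which may be technical.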

Additional observations from a re-analysis of the deposited data

How the results depend on the processing

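No paired analysis was possible because the groups compared share fewer than 2 replicate numbers. At a limit of 2 FPKM, Ccne1, with a mean of 1.997 FPKM, is not tested, so its call is absent there without having failed. In treated wild type against control, 2 of the 4 tested genes and 1667 of all genes were called. The gene count was 1 at a mean of at least 2 FPKM and 0 with library set as a term. With no filter and with filterByExpr, which also test Ccnb1, the called genes were Ccnd1, Ccne1 and Ccnb1. All-gene counts were 3102 with DESeq2, 812 with the set term and 494 to 1263 with single libraries left out. Between genotypes, where 12 of all genes were called, the count was 37 with no filter, 6 with filterByExpr, 283 with DESeq2, 27 with limma (pseudocount 0.5), 30 with 2 groups only, 3 with the set term and 1 to 28 with single libraries left out, and none of the 10 genes was called in these. The fit of all genes with counts divided by 4, chosen after seeing the data, called Ccnd1 there (adjusted p = 0.0267) among 1279 genes. In Optn-/- livers against control, where 1 and 2366 were called, the gene count was 2 with no filter (Ccnd1 and Ccnb1) and with DESeq2 (Ccnd1 and Ccne1) and 1 to 2 with single libraries left out. All-gene counts there were 3619 with DESeq2, 960 with the set term and 750 to 2201 with single libraries left out.

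Signs of log2 fold changes turned only where no fit run gave a call. In wild type against control, Ccnd3 was -0.313 with the set term and -0.34 to 1.59 with single libraries left out, and Ccne2 was -0.26 to 0.96. Ccna2 was -0.14 under total-count scaling, -0.0549 and -0.126 with limma (pseudocounts 0.5 and 0.1), -0.0303 with the set term and -0.31 to 0.30 with single libraries left out. Cdkn1b was -0.12 under total-count scaling and -0.0943 and -0.11 with limma. Between genotypes, Ccnd3 was 1.45 with the set term and -1.61 to 0.18 with single libraries left out, and Mki67 was -1.38 with the set term. In Optn-/- livers against control, Ccnd3 was 1.14 with the set term and -1.26 to 1.14 with single libraries left out, and Top2a was -0.0164 with the set term and -0.42 to 0.60 with single libraries left out. Mki67 against control in Optn-/- livers also passed with 2 groups only and without control replicate 6 or wild-type acetaminophen replicate 4 (edgeR adjusted p = 0.0344, 0.0446 and 0.0294). Fewer libraries leave fewer residual degrees of freedom, and for the other settings the cause was not tested. Depth limits the 6 genes under 0.5 FPKM, Ccnb1 most.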
